A study of Mus musculus with 12 samples.

Results

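The genes of the constitutive proteasome were followed in C26 tumours after doxorubicin treatment. The proteasome degrades ubiquitin-tagged proteins. Its 20S core is a barrel of alpha rings, which form the gate, and beta rings, whose subunits encoded by Psmb5, Psmb6 and Psmb7 cut the substrate. A 19S cap binds the ubiquitin chain and feeds the substrate in, with a ring of ATPases (Psmc genes) and a set of non-ATPase subunits (Psmd genes). In cells exposed to interferon, Psmb8, Psmb9 and Psmb10 replace the catalytic subunits, and these were not counted here. When proteasome activity falls short, the transcription factor NRF1 (Nfe2l1) is known to raise the transcription of the subunit genes together. The genes were chosen by symbol: all that start with Psma, Psmb, Psmc or Psmd and a digit, apart from the 3 immunoproteasome genes named above. This gave 36 of the 12393 genes measured with a probe set of 1 symbol. Psmb11, the thymus-specific beta subunit, was the 1 protein-coding gene of that kind in the RefSeq annotation without such a probe set here. The symbols bring in Psmc3ip, a recombination factor that is no part of the proteasome, and Psmd5, Psmd9 and Psmd10, which encode chaperones that help to build the base of the 19S cap. The others were 8 alpha, 7 beta, 6 ATPase and 11 non-ATPase genes, and Psma8 among them encodes an alpha subunit of the testis.

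C26 is a mouse colon carcinoma line, grown under the skin of Balb/c mice of 6 weeks. On day 8 after inoculation, at a tumour size of about 50 mm3, mice received CP-Dox (doxorubicin on a chimeric polypeptide carrier), free doxorubicin (Dox) or phosphate-buffered saline (PBS). Tumours were taken 48 h later, 4 mice per group, and each was hybridised to its own Affymetrix array. No group had the carrier alone, so carrier and drug cannot be told apart, and the labels used here name no dose. Each value is a log2 signal from RMA (a background correction, quantile normalization and summary of the probes), and a log2 fold change is a difference of group means, given ± the standard error of a limma fit over all 12 arrays (n = 4 tumours per group). A gene is said to have risen or fallen where its p adjusted over all 12393 genes was under 0.05.

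The whole tumour was measured, with host tissue in it. Among the 10 colon epithelial markers, Krt8 and Krt18 were above the dimmest 40% of genes and the other 8, with Epcam, Cdx2 and Vil1, were not. CP-Dox replicate 2 correlated less with its group (mean r = 0.948) than the other 11 arrays did with theirs (0.971 to 0.990). Relative to the PBS mean, keratinocyte markers (12 genes) were at 2.98 and 4.43 in CP-Dox replicates 1 and 3 and at most 0.07 elsewhere. Muscle markers (16 genes) were at -0.46 to 1.84 in CP-Dox tumours, -2.44 to 1.59 in Dox tumours and -2.54 to 3.31 in PBS tumours.

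Constitutive proteasome genes gave no call in any comparison. Between CP-Dox and PBS, 0 of 36 genes passed the threshold, where 5.58% of all genes did. Free Dox against PBS gave 0 of 36, with 0% of all genes called, and CP-Dox against Dox gave 0 of 36, with 0.226%. At an unadjusted p under 0.05, 6 genes passed between CP-Dox and PBS (3 higher and 3 lower in CP-Dox), 2 between Dox and PBS and 4 between CP-Dox and Dox, which is 16.7%, 5.56% and 11.1% of the 36, set beside 23.5%, 4.50% and 16.1% of all genes. The median log2 fold change of the 36 genes was -0.07 for CP-Dox against PBS, -0.0012 for Dox against PBS and -0.04 for CP-Dox against Dox, beside -0.04, 0.00 and -0.03 over all genes. Regardless of sign, the median size of the difference was 0.10, 0.095 and 0.092 for the 36 genes, beside 0.18, 0.097 and 0.15 over all genes.

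The intervals show how large a difference the arrays leave room for. For CP-Dox against PBS, the 95% confidence interval stayed within a 2-fold change either way for 35 of 36 genes, Psmc3ip being the exception, and within a 1.5-fold change for 33 of 36. The same bounds held for 86.9% and 64.5% of all genes. For Dox against PBS the counts were 36 and 34 of 36, and for CP-Dox against Dox 35 and 34 of 36, with Psmb2 outside the 2-fold bound. These are intervals for single genes, not adjusted for their number. The median standard error was 0.10 for these genes and 0.13 over all genes, and the median SD within groups was 0.14 and 0.18.

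**Figure D1:**
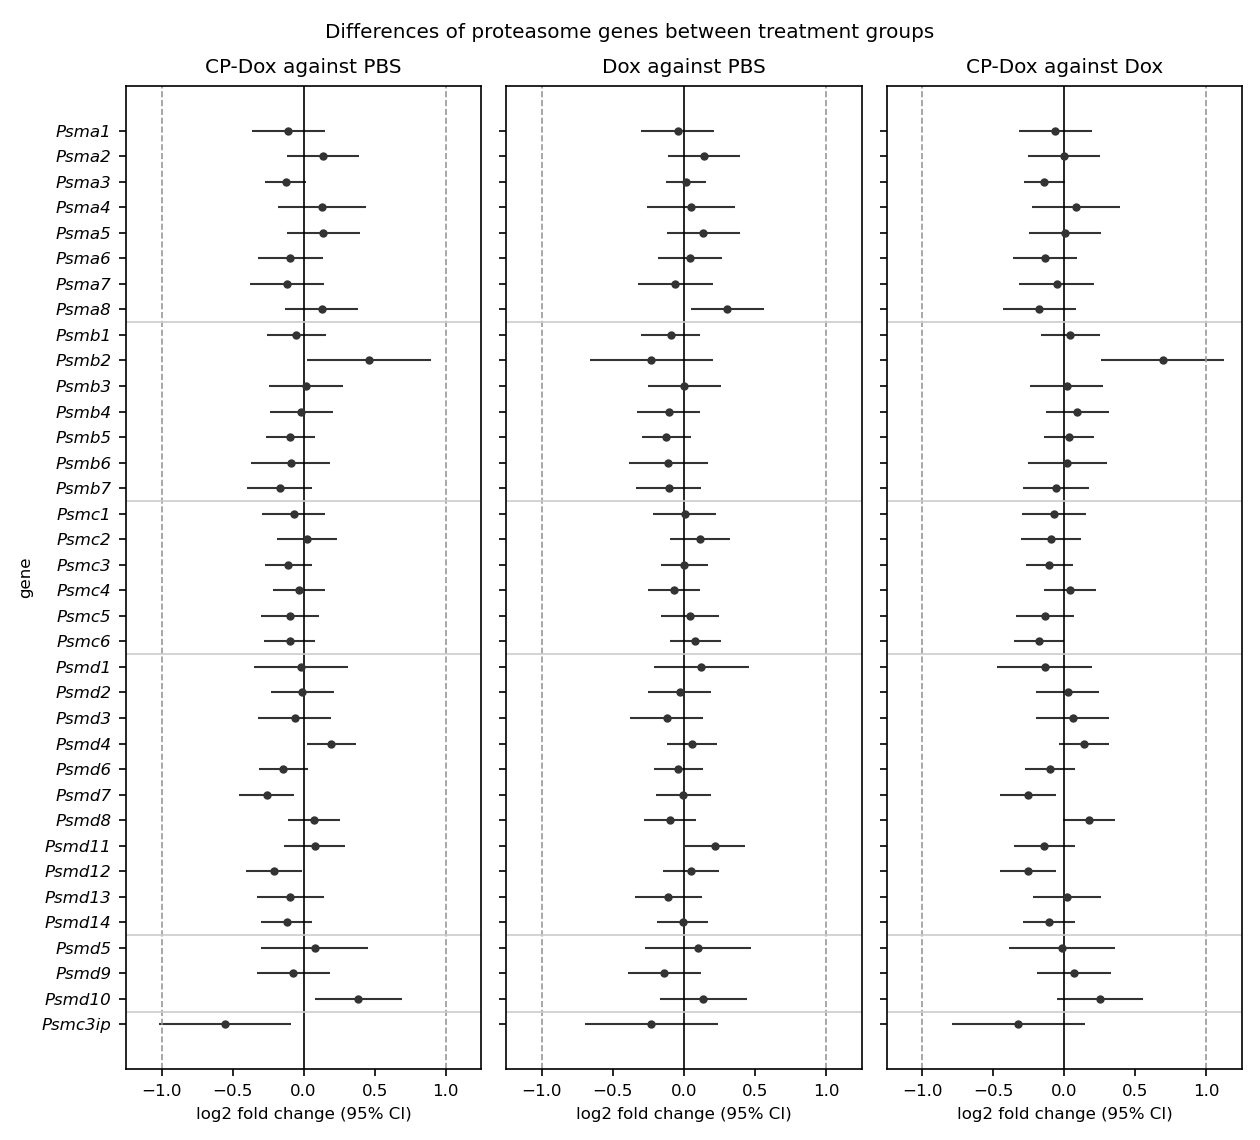
Log2 fold change (x axis) of each of the 36 genes (y axis, by role) in the 3 comparisons, points with bars for the 95% confidence interval of the limma fit, dashed lines at a 2-fold change. Intervals cross the dashed lines for Psmc3ip in CP-Dox against PBS and for Psmb2 in CP-Dox against Dox, and lie inside them for all other genes.

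The alpha ring, the gate of the core, differed little between groups. Of its 8 genes, 4 had a positive and 4 a negative difference between CP-Dox and PBS, from -0.13 to 0.14. Psma3 was at 12.41, 12.30, 12.37 and 12.44 in CP-Dox tumours, 12.52, 12.49, 12.51 and 12.57 in Dox tumours and 12.49, 12.48, 12.57 and 12.48 in PBS tumours. All CP-Dox values of Psma3 lay below all Dox and PBS values. Its difference was -0.13 ± 0.07 (95% confidence interval -0.27 to 0.02) from PBS and -0.14 ± 0.07 from Dox (limma adjusted p = 0.259 and 0.314). Psma5 had signals of 12.38, 11.95, 12.29 and 12.49 in CP-Dox tumours, 12.25, 12.10, 12.30 and 12.44 in Dox tumours and 12.13, 12.05, 12.21 and 12.15 in PBS tumours. CP-Dox replicate 2 was the lowest of the 12 for Psma5 and replicate 4 the highest. It differed by 0.14 ± 0.12 (95% confidence interval -0.12 to 0.39) between CP-Dox and PBS (limma adjusted p = 0.489).

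For Psma2 the signals were 12.24, 11.80, 12.29 and 12.31 in CP-Dox tumours, 12.22, 12.01, 12.18 and 12.24 in Dox tumours and 12.02, 11.91, 12.08 and 12.08 in PBS tumours. Here too CP-Dox replicate 2 lay under every other array, and the Dox values, apart from replicate 2, lay above all PBS values. The difference of Psma2 was 0.14 ± 0.12 for CP-Dox and 0.14 ± 0.12 for Dox against PBS (limma adjusted p = 0.492 and 0.995). Psma8, the testis subunit, was at 4.35, 4.44, 4.65 and 4.30 in CP-Dox tumours, 4.87, 4.50, 4.45 and 4.62 in Dox tumours and 4.47, 4.13, 4.33 and 4.29 in PBS tumours, and it was the 1 gene of the 36 among the dimmest 40% of genes. Dox replicate 1 was its highest value and PBS replicate 2 its lowest, and the groups overlapped. Psma8 differed by 0.30 ± 0.12 (95% confidence interval 0.05 to 0.56) between Dox and PBS (limma adjusted p = 0.995). The remaining alpha genes Psma1, Psma4, Psma6 and Psma7 had differences between -0.12 and 0.13 for CP-Dox and between -0.06 and 0.05 for Dox against PBS.

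The catalytic genes of the beta ring are those that carry the enzyme's activity and are the targets of proteasome inhibitor drugs. Psmb5, the chymotrypsin-like subunit, was at 11.58, 11.68, 11.49 and 11.61 in CP-Dox tumours, 11.51, 11.47, 11.60 and 11.66 in Dox tumours and 11.75, 11.72, 11.55 and 11.72 in PBS tumours. PBS replicate 3 was low within its group, so that the ranges of the 3 groups overlapped. The difference was -0.09 ± 0.08 (95% confidence interval -0.27 to 0.08) for CP-Dox and -0.12 ± 0.08 (95% confidence interval -0.30 to 0.05) for Dox against PBS (limma adjusted p = 0.495 and 0.995). Psmb6, the caspase-like subunit, had 11.79, 11.33, 11.73 and 11.75 in CP-Dox tumours, 11.68, 11.39, 11.72 and 11.72 in Dox tumours and 11.81, 11.56, 11.65 and 11.94 in PBS tumours. Replicate 2 of CP-Dox and of Dox stood below their groups, at 11.33 and 11.39. Psmb6 differed by -0.09 ± 0.13 (95% confidence interval -0.37 to 0.19) and -0.11 ± 0.13 (95% confidence interval -0.39 to 0.17) from PBS (limma adjusted p = 0.687 and 0.995), and without CP-Dox replicate 2 the first difference was 0.01.

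Psmb7, the trypsin-like subunit, was at 11.95, 11.74, 11.85 and 11.95 in CP-Dox tumours, 11.90, 11.67, 12.11 and 12.05 in Dox tumours and 12.07, 12.15, 11.89 and 12.06 in PBS tumours. Again replicate 2 was the lowest of the CP-Dox and of the Dox tumours. Its difference was -0.17 ± 0.11 (95% confidence interval -0.40 to 0.06) for CP-Dox and -0.11 ± 0.11 for Dox against PBS (limma adjusted p = 0.349 and 0.995). Between CP-Dox and Dox the catalytic genes differed by 0.03 ± 0.08, 0.02 ± 0.13 and -0.06 ± 0.11 in the order Psmb5, Psmb6 and Psmb7 (limma adjusted p = 0.867, 0.949 and 0.798). The signs for Psmb5 and Psmb6 turned with the scaling, to -0.02 and -0.03 when arrays were centred on their medians.

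Psmb2, a structural beta subunit, had the largest difference of the 36 genes between CP-Dox and Dox. Its signals were 11.28, 10.63, 11.09 and 11.16 in CP-Dox tumours, 10.26, 9.92, 10.52 and 10.69 in Dox tumours and 10.89, 10.42, 10.27 and 10.74 in PBS tumours. CP-Dox replicates 1, 3 and 4 lay above all other arrays, and replicate 2 at 10.63 lay among the Dox and PBS values. Psmb2 differed by 0.69 ± 0.20 (95% confidence interval 0.26 to 1.13) between CP-Dox and Dox and by 0.46 ± 0.20 (95% confidence interval 0.03 to 0.89) between CP-Dox and PBS (limma adjusted p = 0.153 and 0.189). Without CP-Dox replicate 2 it passed the threshold, at 0.83 and 0.60 (limma adjusted p = 0.0262 and 0.0489), in fits that called 9.28% and 19.1% of all genes. With array weights, which give that array 0.232, it also passed. Dox and PBS differed by -0.23 ± 0.20 (limma adjusted p = 0.995).

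Psmb4, a beta subunit without catalytic activity, was at 13.02, 12.66, 12.92 and 12.93 in CP-Dox tumours, 12.83, 12.57, 12.87 and 12.89 in Dox tumours and 12.93, 12.86, 12.81 and 13.003 in PBS tumours. Replicate 2 was the lowest CP-Dox and the lowest Dox value, and the groups overlapped. CP-Dox and Dox differed by 0.09 ± 0.10 (limma adjusted p = 0.665), and the sign was negative when the mean of both Psmb4 probe sets was used (-0.04). Psmb1 and Psmb3 had differences of -0.05 and 0.02 between CP-Dox and PBS.

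The ATPase ring unfolds substrates. Of its 6 genes, 5 were negative and 1 positive between CP-Dox and PBS, from -0.11 to 0.02, and 5 of 6 were positive between Dox and PBS, from -0.07 to 0.11. Psmc3 was at 11.56, 11.46, 11.66 and 11.69 in CP-Dox tumours, 11.71, 11.64, 11.71 and 11.75 in Dox tumours and 11.77, 11.67, 11.75 and 11.61 in PBS tumours. CP-Dox replicates 1 and 2 were the lowest of the 12 arrays, and the groups overlapped. It differed by -0.11 ± 0.08 (95% confidence interval -0.27 to 0.06) between CP-Dox and PBS (limma adjusted p = 0.406). Psmc6 had 11.14, 11.24, 11.09 and 11.13 in CP-Dox tumours, 11.29, 11.32, 11.28 and 11.42 in Dox tumours and 11.34, 11.26, 11.33 and 11.06 in PBS tumours. Each CP-Dox value of Psmc6 lay below each Dox value, with PBS values on both sides of the CP-Dox range. The difference was -0.18 ± 0.08 (95% confidence interval -0.36 to -0.0002) from Dox and -0.10 ± 0.08 from PBS (limma adjusted p = 0.311 and 0.477).

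Psmc2 was at 11.96, 11.78, 12.005 and 12.05 in CP-Dox tumours, 12.03, 12.06, 11.997 and 12.07 in Dox tumours and 11.92, 11.84, 12.17 and 11.77 in PBS tumours. PBS replicates 3 and 4 were its highest and lowest arrays. Dox and PBS differed by 0.11 ± 0.10 (95% confidence interval -0.10 to 0.33) (limma adjusted p = 0.995). Psmc5 had 10.77, 10.55, 10.76 and 10.80 in CP-Dox tumours, 10.82, 10.77, 10.90 and 10.94 in Dox tumours and 10.90, 10.93, 10.81 and 10.62 in PBS tumours, with CP-Dox replicate 2 the lowest and PBS replicate 4 next to it. CP-Dox and Dox differed by -0.14 ± 0.09 (limma adjusted p = 0.474), and Psmc1 and Psmc4 by -0.07 and 0.04.

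Among the 11 non-ATPase subunit genes of the cap, 8 were negative and 3 positive between CP-Dox and PBS. Psmd7 encodes the partner of the deubiquitinating subunit in the lid and had the lowest p of the 36 genes in that comparison. Its signals were 10.88, 10.87, 10.64 and 10.75 in CP-Dox tumours, 10.93, 10.92, 11.10 and 11.21 in Dox tumours and 11.08, 10.96, 11.09 and 11.05 in PBS tumours. All CP-Dox values of Psmd7 lay below all Dox and all PBS values. The difference was -0.26 ± 0.09 (95% confidence interval -0.46 to -0.06) from PBS and -0.26 ± 0.09 (95% confidence interval -0.45 to -0.06) from Dox (limma adjusted p = 0.113 and 0.212), and Dox differed from PBS by -0.0037. A second, dimmer probe set of Psmd7 gave -0.22 and the third -0.07 for CP-Dox against PBS.

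Psmd12, another lid subunit, was at 10.93, 10.84, 10.85 and 11.02 in CP-Dox tumours, 11.20, 11.04, 11.17 and 11.26 in Dox tumours and 11.13, 11.08, 11.30 and 10.96 in PBS tumours. Each CP-Dox value of Psmd12 lay below each Dox value, and PBS replicate 4 lay within the CP-Dox range. The difference was -0.26 ± 0.09 (95% confidence interval -0.46 to -0.06) from Dox and -0.21 ± 0.09 from PBS (limma adjusted p = 0.212 and 0.189). With array weights Psmd12 passed the threshold against Dox (-0.26, limma adjusted p = 0.0384). Psmd14, which encodes the deubiquitinating subunit, and the lid gene Psmd6 were at -0.12 ± 0.08 and -0.14 ± 0.08 between CP-Dox and PBS.

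Psmd4, a ubiquitin receptor of the cap, had a positive difference. It was at 11.99, 11.91, 12.01 and 11.89 in CP-Dox tumours, 11.86, 11.82, 11.73 and 11.84 in Dox tumours and 11.91, 11.68, 11.79 and 11.62 in PBS tumours. Every CP-Dox value of Psmd4 lay above every Dox value, and PBS replicate 1 lay in between the CP-Dox values. The difference was 0.20 ± 0.08 (95% confidence interval 0.02 to 0.37) from PBS and 0.14 ± 0.08 from Dox (limma adjusted p = 0.170 and 0.411), and 1 of its 3 probe sets, the dimmest, had a negative sign (-0.07). Psmd11, a lid subunit that holds core and cap together, was at 11.88, 11.83, 11.75 and 11.90 in CP-Dox tumours, 11.88, 12.09, 11.89 and 12.07 in Dox tumours and 11.80, 11.82, 11.92 and 11.51 in PBS tumours. PBS replicate 4 was its lowest array, and Dox replicates 2 and 4 were the highest. Dox and PBS differed by 0.22 ± 0.10 (95% confidence interval 0.01 to 0.43) (limma adjusted p = 0.995). Psmd8 had 11.45, 11.35, 11.39 and 11.39 in CP-Dox tumours, 11.20, 11.03, 11.28 and 11.37 in Dox tumours and 11.38, 11.29, 11.22 and 11.40 in PBS tumours, with overlap between all groups, and Dox and PBS differed by -0.10 ± 0.08 (limma adjusted p = 0.995). The scaffold genes Psmd1 and Psmd2 were at -0.02 and -0.01 between CP-Dox and PBS. PBS replicate 4 was the lowest of the 12 arrays for both, and for Psmd1 it was at 10.36, against 11.08 to 11.16 in the other PBS tumours.

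Psmd10 encodes gankyrin, a chaperone of the ATPase ring that is also known as an oncoprotein. Its signals were 9.97, 10.22, 9.79 and 9.85 in CP-Dox tumours, 9.54, 9.52, 9.78 and 9.9997 in Dox tumours and 9.67, 9.41, 9.42 and 9.80 in PBS tumours. CP-Dox replicate 2 was the highest of the 12, and CP-Dox replicate 3 at 9.79 lay just under PBS replicate 4 at 9.80. Psmd10 differed by 0.39 ± 0.14 (95% confidence interval 0.08 to 0.69) between CP-Dox and PBS and by 0.25 ± 0.14 between CP-Dox and Dox (limma adjusted p = 0.130 and 0.398). Psmd9 was at 9.06, 8.73, 8.91 and 8.94 in CP-Dox tumours, 8.90, 8.54, 8.92 and 9.02 in Dox tumours and 9.05, 8.78, 8.999 and 9.10 in PBS tumours, with replicate 2 the lowest of the CP-Dox and of the Dox tumours, and differed by -0.07 ± 0.12 and -0.14 ± 0.12 from PBS (limma adjusted p = 0.736 and 0.995). Psmd5 lay at 11.10 in CP-Dox replicate 2, against 10.20 to 10.63 in the other 11 arrays.

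Psmc3ip, the recombination factor that is not a proteasome subunit, had the largest difference of the 36 genes between CP-Dox and PBS. It was at 7.94, 7.09, 8.01 and 7.89 in CP-Dox tumours, 8.29, 7.54, 8.33 and 8.07 in Dox tumours and 8.31, 8.24, 8.17 and 8.43 in PBS tumours. All CP-Dox values of Psmc3ip lay below all PBS values, with replicate 2 of CP-Dox and of Dox the lowest arrays. It differed by -0.55 ± 0.21 (95% confidence interval -1.02 to -0.09) from PBS (limma adjusted p = 0.149). Without it the median of the other 35 genes was -0.06.

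Measured by more than 1 probe set, 17 of the genes could be checked within themselves. Their probe sets differed in sign for 5 of 17 genes between CP-Dox and PBS (Psma1, Psmb1, Psmb3, Psmd4 and Psmd11), 11 between Dox and PBS and 12 between CP-Dox and Dox. Psma1, Psma6, Psmb1, Psmb3, Psmb4, Psmd4 and Psmd7 were among both of these, and none of the probe sets passed the threshold. Over the 36 genes, 3 had no overlap between CP-Dox and PBS (Psma3, Psmd7 and Psmc3ip, all lower), beside 12.1% of all genes, with 7.75% lower. None of 36 was free of overlap between Dox and PBS, beside 3.84%. Between CP-Dox and Dox, 6 of 36 were, beside 9.63%. Psma3, Psmc6, Psmd1, Psmd7 and Psmd12 were lower in CP-Dox (5 genes, beside 6.34% of all genes) and Psmd4 was higher (1 gene, beside 3.29%).

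**Figure D2:**
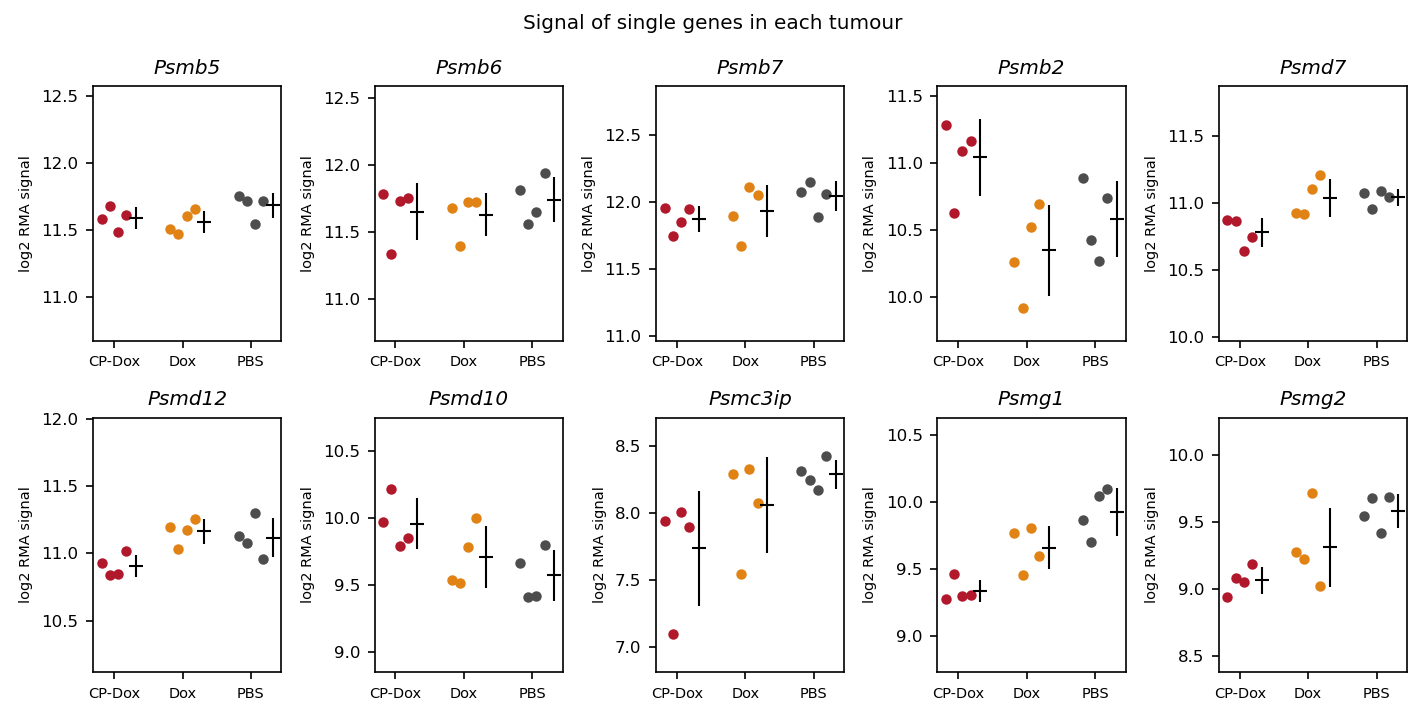
Log2 RMA signal (y axis, same span in each panel) of 10 genes in each tumour, grouped as CP-Dox, Dox and PBS, with the mean and SD of the 4 tumours as a black bar. Psmd7 is lower in all CP-Dox tumours than in the others, Psmb2 is higher in 3 of 4, and the assembly factor genes Psmg1 and Psmg2 lie below the PBS range in all 4.

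Single tumours stood out within their groups. The mean of the 15 core genes relative to PBS was 0.09, -0.21, 0.06 and 0.11 in CP-Dox replicates 1 to 4, 0.01, -0.20, 0.04 and 0.11 in Dox replicates 1 to 4, and 0.03, -0.07, -0.03 and 0.07 in PBS replicates 1 to 4. CP-Dox replicate 2 and Dox replicate 2 stood below all other tumours. CP-Dox replicate 2 was the lowest CP-Dox tumour for 13 of 15 core genes, beside 29.9% of all genes, and Dox replicate 2 the lowest Dox tumour for 14 of 15, beside 32.4%. PBS replicate 2 also had the lowest core mean of its group and was the lowest PBS tumour for 8 of 15, beside 34.7%. The 17 cap genes shared part of this pattern. CP-Dox replicate 2 was the lowest CP-Dox tumour for 10 of 17 cap genes and Dox replicate 2 the lowest Dox tumour for 11 of 17, beside the same 29.9% and 32.4% of all genes. The mean of the cap genes was -0.02, -0.12, -0.07 and -0.01 in CP-Dox tumours, 0.01, -0.05, 0.01 and 0.08 in Dox tumours, and 0.08, -0.01, 0.08 and -0.15 in PBS tumours. Replicate 2 was thus the lowest of CP-Dox and of Dox here too, and PBS replicate 4 was lower still. It was the lowest PBS tumour for 13 of the 17 cap genes and for 3 of the 15 core genes, beside 28.3% of all genes.

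Without CP-Dox replicate 2, the median difference between CP-Dox and PBS was 0.01 for the core and -0.02 for the cap, compared with -0.05 and -0.07 with all arrays. Without PBS replicate 4 it was 0.01 for the core and -0.14 for the cap, with 15 of 17 cap genes negative, against 13 of 17 with all arrays. In whole tumours, fewer cells of a type and less RNA per cell cannot be told apart. Marker lists differed in these tumours too. Interferon response genes (8 measured) were at -1.66 in CP-Dox replicate 2 and 1.63 to 1.94 in the other CP-Dox tumours, and T and NK cell markers (10 measured) at -1.45 there and 0.81 to 1.36 in the others. Proliferation genes (8 measured) were at -1.80 in CP-Dox replicate 2, and replicates 1, 3 and 4 lay between -0.52 and -0.40. In Dox replicate 2, muscle markers were at 1.59, against -2.44 to -2.41 in the other Dox tumours, and proliferation genes at -0.55, against -0.27 to -0.17. Interferon response genes were there at -0.48, against 0.15 to 0.84, and T and NK cell markers at -0.41, against -0.19 to 0.83. Colon epithelial markers were at 0.66 and 0.33 in replicate 2 of CP-Dox and of Dox, the highest of each group. In PBS replicate 4, proliferation genes (-0.16) and colon epithelial markers (-0.23) were the lowest of the PBS tumours, and T and NK cell markers (0.56) the highest. Their part in the level of the proteasome genes was not tested.

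**Figure D3:**
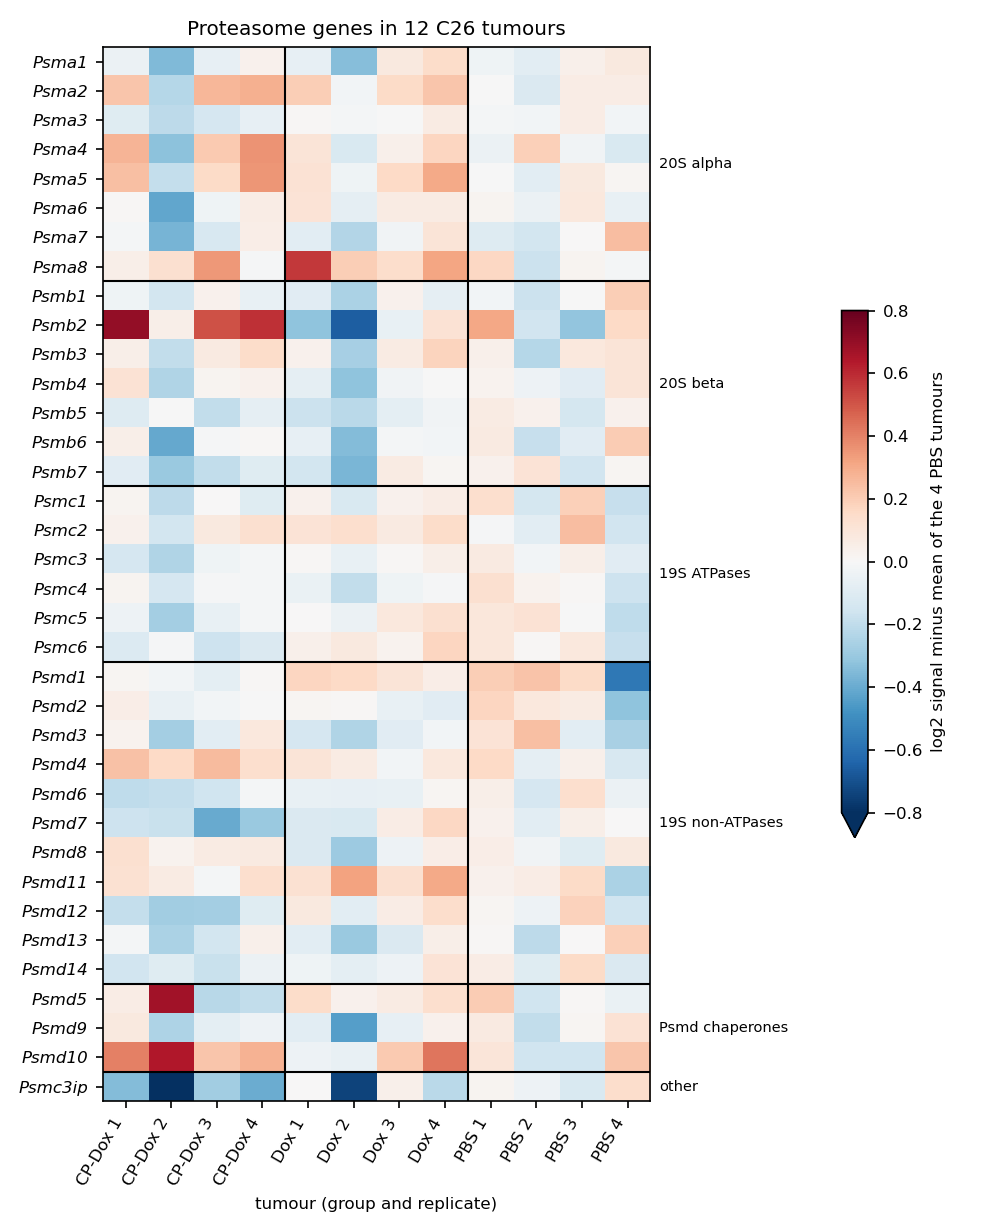
Log2 signal minus the mean of the PBS tumours (colour) for the 36 genes (rows, by role) in the 12 tumours (columns, CP-Dox, Dox, PBS). Replicate 2 of CP-Dox and of Dox is blue across most alpha and beta genes, PBS replicate 4 is blue across most cap genes, and Psmd5 and Psmd10 are red in CP-Dox replicate 2.

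The subunit genes varied together between tumours of 1 group. As a description, the deviations of each gene from its group means were correlated over the 12 arrays, which the genes share. Between pairs of the 14 core genes other than Psma8, the median Pearson r was 0.71 (91 pairs, 94.5% above 0), and between pairs of the 17 cap genes 0.41 (136 pairs, 88.2% above 0). Pairs of 1 core and 1 cap gene had a median of 0.23 (238 pairs), and all pairs of genes 0.01. Psmb4 and Psma1 followed the mean of the other core genes most closely (r = 0.95 and 0.94), and Psmb5 least (r = 0.10). In the cap, Psmc4 and Psmd12 were highest (0.86 and 0.85), and Psmd7, Psmd8 and Psmd13 were lowest (0.25, 0.11 and 0.06).

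For the core, this rested largely on both replicate 2 arrays. Without CP-Dox replicate 2 and Dox replicate 2, left out together after the data were seen, the median r was 0.30 among core genes and 0.47 among cap genes over 10 arrays. Psma1 and Psmb4 were then at 0.78 and 0.72 with the mean of the other core genes, while Psmb5 was at 0.58 and Psma4 at -0.40. In replicate 2 of CP-Dox, Psmb5 was the highest of its group at 11.68, whereas Psmb6 and Psmb7 were the lowest of theirs. The 12 values of every gene outside the 36 were also correlated with the mean of the 36, with group means kept and both replicate 2 arrays included. The 8 highest were Defa3, Cops5, Cyp2c65, Cenph, Pspc1, Cenpq, Ppp1r7 and Vrk1 (r from 0.82 to 0.88). They are the top of a search over all those genes, and their r over the 10 arrays was not worked out.

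**Figure D4:**
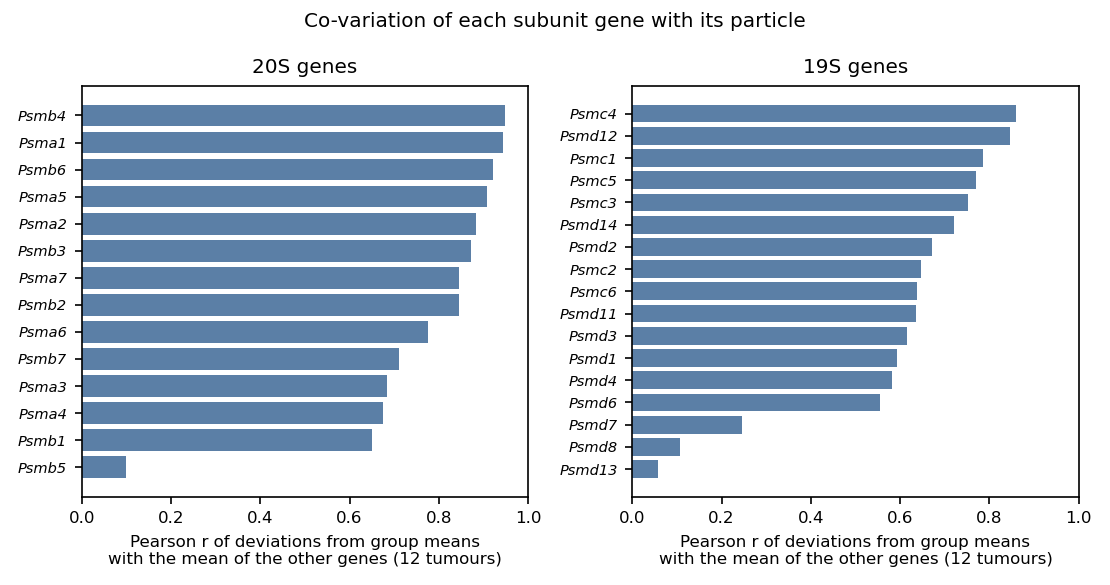
Pearson r over 12 tumours (x axis) between each gene's deviations from its group means and the mean deviation of the other genes of its particle, for the 20S core (left, without Psma8) and the 19S cap (right). Psmb5 is apart from the other core genes at 0.10, and Psmd7, Psmd8 and Psmd13 are lowest in the cap.

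Promoter windows of 4 core genes are shown because NRF1 and NRF2 bind the antioxidant response element, a known route to joint control of proteasome genes. Over the 12 arrays, Psmb5 followed the mean of the other core genes least, and Psmb4, Psma1 and Psmb6 (r = 0.92) most. No cap gene is shown. The windows run from 250 bases before to 50 after the start (RefSeq, GRCm38.p6), 5′ to 3′ on the gene's strand. Capitals mark TGACNNNGC, the core of that element, or CCAAT, on either strand.
Psmb5 (chr14:54617946-54618245, minus strand): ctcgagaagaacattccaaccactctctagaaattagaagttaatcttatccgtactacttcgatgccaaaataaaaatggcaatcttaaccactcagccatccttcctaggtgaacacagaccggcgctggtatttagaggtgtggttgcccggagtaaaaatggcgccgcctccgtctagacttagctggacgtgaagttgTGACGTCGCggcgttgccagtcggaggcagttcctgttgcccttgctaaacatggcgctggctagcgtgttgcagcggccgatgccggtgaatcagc
Psmb6 (chr11:70525107-70525406, plus strand): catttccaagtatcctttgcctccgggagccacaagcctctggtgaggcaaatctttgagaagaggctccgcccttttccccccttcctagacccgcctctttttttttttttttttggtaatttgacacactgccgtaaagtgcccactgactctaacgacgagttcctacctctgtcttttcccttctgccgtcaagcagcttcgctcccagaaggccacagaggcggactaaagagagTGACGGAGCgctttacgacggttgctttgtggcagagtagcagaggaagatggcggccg
Psmb4 (chr3:94886909-94887208, minus strand): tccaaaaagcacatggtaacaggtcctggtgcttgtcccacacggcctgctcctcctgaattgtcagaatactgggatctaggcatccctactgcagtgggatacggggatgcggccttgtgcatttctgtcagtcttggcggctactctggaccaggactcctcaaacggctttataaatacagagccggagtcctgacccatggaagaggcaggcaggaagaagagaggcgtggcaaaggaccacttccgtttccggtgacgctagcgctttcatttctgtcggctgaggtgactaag
Psma1 (chr7:114276067-114276366, minus strand): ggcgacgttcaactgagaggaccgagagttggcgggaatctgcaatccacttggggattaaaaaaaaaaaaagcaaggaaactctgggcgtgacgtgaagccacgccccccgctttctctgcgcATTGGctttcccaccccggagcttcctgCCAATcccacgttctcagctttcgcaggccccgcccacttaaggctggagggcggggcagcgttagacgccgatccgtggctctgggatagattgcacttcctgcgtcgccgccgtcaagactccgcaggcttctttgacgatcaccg
Psmb5 and Psmb6 hold TGACNNNGC, with the first base at -47 and -9 from the start, Psma1 holds CCAAT on both strands, and Psmb4 holds neither. RefSeq windows were found for 29 of the 36 genes (31 windows). TGACNNNGC was in 5 of 31 (16.1%), those of Psmb5, Psmb6, Psmc6, Psmd9 and Psmd12, and in 12.4% of all 32851 windows. CCAAT was in 12 of 31 (38.7%) and in 37.4% of all. None of these 4 windows holds both motifs, and a match is no evidence of binding.

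Among 41 measured genes around the proteasome, 4 were called in CP-Dox against PBS (9.76%), all lower. Over all 12393 genes, 5.58% were called in either direction, 291 higher and 400 lower. Markers of several cell types were called in the same comparison. Mast cell markers were called higher in CP-Dox for 7 of 8 genes, endothelial markers for 3 of 8 and fibroblast markers for 2 of 8. Adipocyte markers were called higher for 2 of 4, neutrophil markers for 2 of 7 and colon epithelial markers for 1 of 10. Erythroid markers were called lower for 1 of 3. Keratinocyte, muscle, macrophage, T and NK cell and B cell markers gave no call. The mean of the mast cell list relative to PBS was 1.10 to 1.65 in CP-Dox, -0.28 to 1.02 in Dox and -0.38 to 0.22 in PBS tumours, and that of the endothelial list 0.47 to 0.73, -0.05 to 0.35 and -0.27 to 0.18 in the same order. The part of these cells in the levels of the 4 called genes was not tested.

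Of 5 assembly factor genes measured, 2 fell, Psmg1 and Psmg2, whose products form a pair that starts the alpha ring. Psmg1 was at 9.28, 9.46, 9.30 and 9.31 in CP-Dox tumours, 9.77, 9.46, 9.81 and 9.60 in Dox tumours and 9.87, 9.70, 10.05 and 10.10 in PBS tumours. Each CP-Dox value lay below each PBS value, and Dox replicates 1, 3 and 4 lay between them or among the PBS values. It fell by 0.59 ± 0.11 on the log2 scale and kept its call without each array in turn, and Dox differed from PBS by -0.27 ± 0.11 (limma adjusted p = 0.0123 and 0.995). Psmg2 was at 8.94, 9.08, 9.05 and 9.18 in CP-Dox tumours, 9.28, 9.22, 9.71 and 9.02 in Dox tumours and 9.54, 9.68, 9.41 and 9.68 in PBS tumours. The CP-Dox values lay below all PBS values, and the Dox values spread over both. Psmg2 fell by 0.51 ± 0.13 (limma adjusted p = 0.0468). Its call was kept without CP-Dox replicate 2, Dox replicate 3 or Dox replicate 4 and lost without each of the other 9 arrays in turn (limma adjusted p from 0.0603 to 0.131).

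Psmg3 and Psmg4, which form the other such pair, were at -0.30 ± 0.11 and -0.20 ± 0.19, and Pomp, which helps to place the beta subunits, was at 0.07 ± 0.11 (limma adjusted p = 0.136, 0.546 and 0.735). CP-Dox and Dox differed by -0.32 ± 0.11 for Psmg1 and -0.24 ± 0.13 for Psmg2, and neither passed (limma adjusted p = 0.206 and 0.389). The mean of the 5 genes relative to PBS was -0.44 to -0.22 in CP-Dox, -0.38 to -0.01 in Dox and -0.11 to 0.18 in PBS tumours.

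Of 9 measured genes of ubiquitin and its activating and conjugating enzymes, 1 fell, Ube2s, which extends ubiquitin chains for the anaphase-promoting complex. Ube2s was at 11.76, 11.73, 11.53 and 11.77 in CP-Dox tumours, 11.82, 11.87, 11.96 and 12.04 in Dox tumours and 12.22, 12.07, 12.20 and 12.18 in PBS tumours. The CP-Dox, Dox and PBS ranges lay in that order from low to high without overlap, and it fell by 0.47 ± 0.08 in CP-Dox (limma adjusted p = 0.00989), with Dox at -0.25 ± 0.08 from PBS (limma adjusted p = 0.995). Of 8 proliferation markers, Ccna2, Pcna and Tk1 fell in CP-Dox against PBS and the other 5 did not pass, beside 5.58% of all genes called. Top2a was at 11.26, 8.96, 11.08 and 11.17 in CP-Dox tumours, so that replicates 1, 3 and 4 lay among the PBS values of 10.41 to 11.44. The part of proliferation in the level of Ube2s was not tested. Of 11 proteasome-bound factors, 1 fell, the ubiquitin receptor gene Ubqln4. It was at 7.75, 8.43, 7.59 and 7.89 in CP-Dox tumours, 8.17, 8.62, 8.24 and 8.37 in Dox tumours and 8.50, 9.18, 8.74 and 8.44 in PBS tumours. CP-Dox replicate 2 was at 8.43, just under PBS replicate 4 at 8.44, and the other CP-Dox values lay below all Dox and PBS values. Ubqln4 fell by 0.80 ± 0.20 (limma adjusted p = 0.0411), and its call was kept without CP-Dox replicate 2, Dox replicate 2 or PBS replicate 4 and lost without each of the other 9 arrays (limma adjusted p from 0.0587 to 0.123).

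Control genes of the subunits gave no call with all arrays. Of 8 genes around NRF1 and NRF2, 0 passed in CP-Dox against PBS, with Nfe2l1 at 0.12 ± 0.11, the NRF2 gene Nfe2l2 at 0.03 ± 0.22 and Ngly1, which encodes a glycanase that activates NRF1, at 0.19 ± 0.11 (limma adjusted p = 0.542, 0.949 and 0.298). Of 3 other regulators none passed, and the activator gene Psme3 had the lowest p, at -0.34 ± 0.09 (limma adjusted p = 0.0534). Fbxo32, a muscle ubiquitin ligase gene, was at 8.10, 7.80, 7.99 and 7.59 in CP-Dox tumours, 7.57, 6.94, 6.85 and 6.32 in Dox tumours and 6.79, 6.39, 7.53 and 6.78 in PBS tumours. Every CP-Dox value lay above every PBS and Dox value, at 0.997 ± 0.27 from PBS (limma adjusted p = 0.0540). Muscle markers differed between the tumours as given above, and their part in the level of Fbxo32 was not tested. Free Dox gave 0 calls in these lists against PBS, beside 0% of all genes, and CP-Dox gave 0 against Dox, beside 0.226%. In CP-Dox against Dox, Ube2d1 and Txnl1 had the lowest p of the ubiquitin and proteasome-bound lists (limma adjusted p = 0.107 and 0.181). Without CP-Dox replicate 2, an alternative for these lists chosen after the data were seen, 6 of the 41 genes were called higher and 7 lower in CP-Dox against PBS, in a fit that called 19.1% of all genes. Besides the 4 genes above and the immunoproteasome list, these were Keap1, which encodes the repressor of NRF2, at 0.36, Maff, a small Maf partner gene of NRF factors, at -0.68, Fbxo32 at 1.02, Psme3 at -0.33 and Txnl1 at -0.38 (limma adjusted p = 0.0200, 0.0192, 0.0351, 0.0439 and 0.0396). Against Dox, Keap1 and Ube2c were then called higher and Txnl1 lower, with 9.28% of all genes called.

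Immunoproteasome genes spread widely between tumours. Psmb8, which replaces Psmb5, was at 12.81, 10.03, 12.78 and 12.83 in CP-Dox tumours, 12.21, 10.90, 11.87 and 12.44 in Dox tumours and 11.49, 12.05, 11.56 and 11.94 in PBS tumours. The lowest value was CP-Dox replicate 2, the tumour in which Psmb5 was the highest of its group. This was not so in Dox replicate 2, where Psmb8 at 10.90 and Psmb5 at 11.47 were both the lowest of the Dox tumours. Psmb8 differed by 0.35 ± 0.57 (95% confidence interval -0.89 to 1.60) between CP-Dox and PBS (limma adjusted p = 0.731). Psmb10, the counterpart of Psmb7, had the lowest p of the list there. It was at 13.07, 9.87, 12.98 and 13.01 in CP-Dox tumours, 12.37, 10.87, 11.81 and 12.49 in Dox tumours and 11.51, 12.29, 11.65 and 11.79 in PBS tumours. Its groups overlapped in the same way, and it differed by 0.42 ± 0.64 (limma adjusted p = 0.711). In CP-Dox replicate 2, Psmb10 at 9.87 and Psmb7 at 11.74 were both the lowest of the CP-Dox tumours. The mean of Psmb8, Psmb9, Psmb10 and Psme1 relative to PBS was 1.02, -1.80, 1.02 and 0.98 in CP-Dox tumours, 0.42, -0.85, -0.01 and 0.58 in Dox tumours and -0.31, 0.40, -0.19 and 0.10 in PBS tumours. Their SD over 4 tumours was 1.40 in CP-Dox, 0.64 in Dox and 0.32 in PBS, and that of the core mean was 0.15, 0.13 and 0.06. Replicate 2 was the lowest of CP-Dox and of Dox for both. Without CP-Dox replicate 2, all 4 genes passed the threshold against PBS, in a fit that called 19.1% of all genes. Psmb8 was then at 1.05 ± 0.30, Psmb9 at 1.12 ± 0.35, Psmb10 at 1.21 ± 0.33 and Psme1 at 0.66 ± 0.20 (limma adjusted p = 0.0331, 0.0476, 0.0269 and 0.0378).

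**Figure D5:**
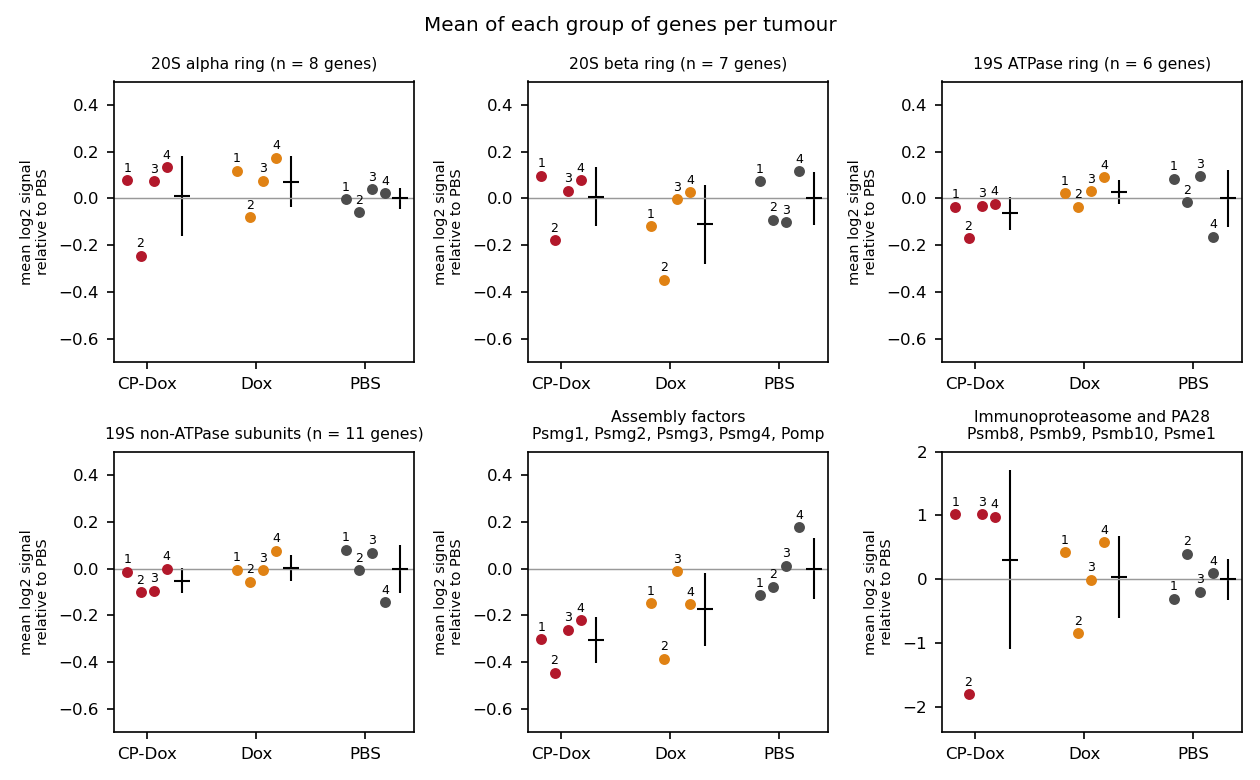
Mean log2 signal relative to the PBS mean (y axis) of 6 groups of genes in each tumour (points, numbered by replicate) with the mean and SD of 4 tumours as a black bar. Replicate 2 of CP-Dox and of Dox is the lowest of its group for all 6 groups of genes (wider y axis in the last panel). PBS replicate 4 is low for the cap genes, and the mean of the assembly factor genes is lower in all CP-Dox than in all PBS tumours.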

How the data were processed

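The authors deposited RMA values on a log2 scale for 12 Affymetrix arrays, 1 per tumour; RMA and Partek are named in the submitters' processing notes, without versions. The 22690 probe sets were named through GEO's platform annotation: 691 with several symbols, 1555 with none and 64 controls were left out. The remaining 20380 gave 12393 genes, each by its probe set with the highest mean. All 36 genes matched the RefSeq table by gene ID. limma 3.58.1 (R 4.3.3) fitted a mean per group with 9 residual degrees of freedom, checked on simulated data, with Benjamini-Hochberg adjustment over all genes. Precision is limited by the 4 arrays per group. The labels name separate mice. Each p-value sets a difference of group means against the spread between mice within groups, pooled over the 3 groups and moderated over all genes. All-array values are given for called genes, the catalytic genes and the 2 lowest p per role and comparison. In pathway lists they are given for called genes and for Psmb8, Psmb10 and Fbxo32, and not for the other genes named there. The genes and lists were chosen with earlier results of these data known. The labels tie no number to a shared litter or day, and replicate numbers were not used as pairs.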

Additional observations from a re-analysis of the deposited data

Results flagged for a closer look

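Within groups of 4 tumours, 123 sets of values were tested for 1 tumour far from the other 3 (Dixon's 95% critical value), 108 of them single genes. Of these, 12 stood out, 10 for single genes, and chance flags about 1 in 20.

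CP-Dox replicate 2 was low for Psma2 at 11.80, where replicates 1, 3 and 4 lay between 12.24 and 12.31. It was also low for Psmb6 at 11.33, for Psmc5 at 10.55 and for Psmc3ip at 7.09. The mean of the alpha genes relative to PBS was -0.24 in that tumour, against 0.08 to 0.13 in the others, and the mean of the ATPase genes was -0.17, against -0.03 to -0.02. Dox replicate 2 was low for Psmb6 at 11.39 and for Psmc1 at 10.70. Dox replicate 4 was high for Psmd6 at 11.44, against 11.36 to 11.37.

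Among PBS tumours, replicate 3 was high for Psma3 at 12.57 and low for Psmb5 at 11.55. PBS replicate 4 was low for Psmd1 at 10.36.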

How the results depend on the processing

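The call of 0 of 36 genes held under 12 of 13 alternatives that keep all arrays and under 11 of 12 fits that leave out an array, the exceptions being array weights and the fit without CP-Dox replicate 2. Among the 13, the cuts at 0.01 and 0.10 reuse the main fit and are no separate support. The lowest limma adjusted p of the 36 genes in that fit was 0.113. Array weights called 1 gene higher against PBS, 1 higher and 1 lower against Dox, while calling 2665 and 1960 of all genes. Without single arrays, 214 to 2363 genes were called between CP-Dox and PBS, 0 to 2 between Dox and PBS and 1 to 1150 between CP-Dox and Dox, with 0 to 1 of the 36 higher in CP-Dox. The highest counts came without CP-Dox replicate 2. Between CP-Dox and Dox, 46 genes were called after another quantile normalization (2 for Dox against PBS), 47 without the dimmest 40% of genes, 11 with the probe set of largest interquartile range, 15 with robust moderation and 8 with the replicate number as a block. Deviations of same-numbered tumours correlated at over 0.1 in 8 of 12 pairs, all of replicates 1 and 4 among them (from -0.31 to 0.51 over all pairs). For 6 of 12 arrays, the best match in another group had the same number. The share expected without any link was not worked out. The highest value, 0.51, was between CP-Dox replicate 2 and Dox replicate 2, the tumours with the lowest core means. Whether tumours of 1 number shared a condition was not tested. Fits of the compared groups alone called 198 genes for CP-Dox and 2 for Dox against PBS, and 0 between CP-Dox and Dox. At an adjusted p under 0.01, 143 and 1 genes passed against PBS and Dox in CP-Dox, and under 0.10, 1314 and 143, with 2 for Dox against PBS. Of 1070 values of named genes, 16 reversed, none of them called. Psmb6 (CP-Dox against Dox) was at -0.016 after requantiling, -0.034 with centred medians and -0.058 to 0.13 without single arrays, and against PBS at 0.0060 with array weights and from -0.15 to 0.015 without single arrays. Psmb5 was at -0.023 with centred medians and Psmb4 at -0.038 (mean of probe sets) and -0.17 (largest interquartile range). The probe set of largest interquartile range gave -0.067 for Psmd4 (CP-Dox against PBS), -0.045 for Psmc6 and -0.051 for Psmd11 (Dox against PBS) and -0.060 for Psmd9 (CP-Dox against Dox), which was at -0.035 without Dox replicate 2. Causes were not tested. Psma8 has no value without the dimmest genes.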
